A study of Homo sapiens with 6 samples.

Results

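The antimicrobial proteins of skin are described here through 7 genes, RNASE7, LCN2, SLPI, PI3, DEFB1, DEFB4A and CAMP, out of 19493 genes with values. The genes were listed by name and found by their Ensembl identifiers, and all 7 were present in all 6 libraries. The list carries no threshold, but it was chosen by name with earlier results on the same 3 groups known. Levels and fold changes of the members are therefore given as a description, without p-values.

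The cells were HaCaT, a spontaneously immortalised line of human keratinocytes, and every group, controls included, carried the photolyase of Potorous tridactylus, a marsupial enzyme that splits cyclobutane pyrimidine dimers in DNA under visible light. Control cells were not irradiated and had inactive enzyme. UVC cells received 15 J/m2 at 254 nm with inactive enzyme and were collected 6 h later. The remaining group had the same irradiation with the enzyme made active by 2 h of white light, so the enzyme's activity and the light itself cannot be told apart. Each group had 2 libraries, and the labels do not say whether these came from separate cultures, so errors cover the spread between libraries, which may be technical. Which promoter drove the photolyase, and whether the line was 1 clone, is not stated in the labels.

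Keratinocytes form the outer wall of the body and secrete small proteins that kill microbes or hold back their growth. RNASE7 encodes a cationic ribonuclease abundant in healthy skin, and LCN2 encodes lipocalin 2, which binds bacterial siderophores and so withholds iron. SLPI and PI3, the latter encoding elafin, belong to the whey acidic protein (WAP) family of protease inhibitors, which block neutrophil elastase and also act on bacteria. DEFB1 and DEFB4A encode beta-defensins 1 and 2, the first usually constitutive and the second induced by inflammation, and CAMP encodes the precursor of the cathelicidin peptide LL-37.

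Libraries held 57669389 to 70005705 counts. All 9 keratinocyte markers were expressed, with a summed level of 14400 to 15100 in control, 10300 to 10500 in UVC cells, and 14200 to 14300 with photolyase active. Of 10 markers of neutrophils and other white blood cells, which also make LCN2, SLPI and CAMP, 3 reached 1 cRPKM in at least 2 libraries (CXCR2, S100A12 and CD14), and their list summed to 3.44 to 4.12 in control, 5.48 to 5.54 in UVC cells, and 4.03 to 4.56 with photolyase active. The neutrophil genes MPO and ELANE were at or near 0 cRPKM in every library, with ELANE at most at 0.04. Of the other lists, 0 of 5 melanocyte, 2 of 6 fibroblast (COL1A1 and DCN) and 1 of 5 gland markers (MUCL1) reached that level, and TYR and DCD had no read. Melanocyte markers summed to 0.679 to 1.14 over all libraries and fibroblast markers to 7.31 to 9.58. The gland list, mostly MUCL1, summed to 1.87 to 2.18 in control, 0.576 to 0.989 in UVC cells, and 2.25 to 3.68 with photolyase active. In bulk RNA, fewer cells making a transcript and less of it per cell cannot be told apart.

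Levels are the deposited cRPKM, reads corrected for the effective length of the gene and for library size, divided by a scaling factor of each library. They can be compared between genes unless the effective length is very short, as for DEFB4A (48 bases). In control the order was SLPI, LCN2, PI3, RNASE7 and DEFB1, at 958.2 ± 68.5, 772.1 ± 21.8, 450.4 ± 7.15, 45.88 ± 1.49 and 12.05 ± 0.33 scaled cRPKM (SD, n = 2 each). No neighbours in that order overlapped between libraries. SLPI stood above 99.3% of the 11926 genes tested, LCN2 above 99.0% and PI3 above 98.4%, whereas RNASE7 stood above 84.2% and DEFB1 above 56.0%. After UVC the top 3 kept their order, but DEFB1 (23.72 ± 2.5) and RNASE7 (21.26 ± 0.247) differed by less than the SD of DEFB1. With active photolyase the libraries of LCN2 (892.5 ± 18.3) and PI3 (858.5 ± 54.9) overlapped. DEFB4A and CAMP were at the floor of detection throughout. Summed over all 7 members, the share of each library's counts was 0.125 to 0.132% for control and 0.209 to 0.214% for UVC. It was 0.224 to 0.242% for active photolyase. Unlike the levels above, these shares were not divided by the scaling factors, which ran from 0.884 in control to 1.18 in UVC cells. Their steps between groups therefore differ from those of the scaled levels.

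**Figure D1:**
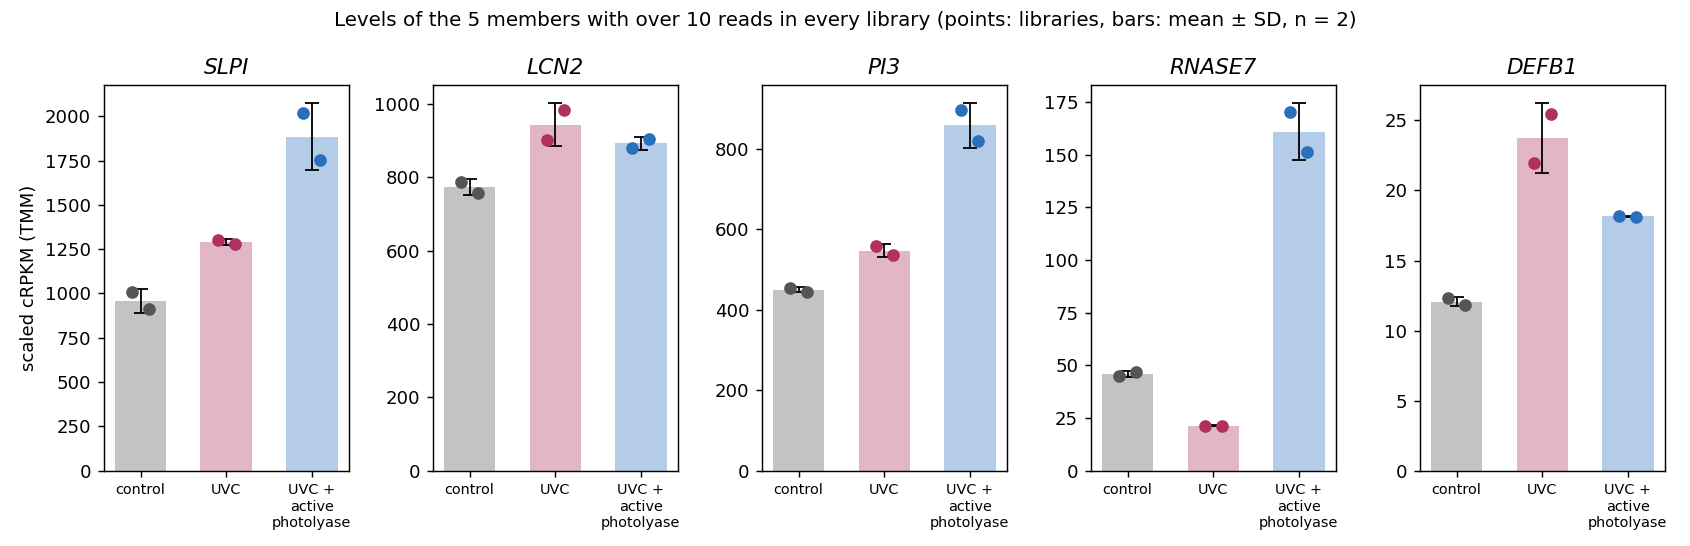
Scaled cRPKM (y axis, from 0, a separate scale per gene) of the 5 members with over 10 reads in every library, by group (x axis); points are libraries and bars the mean ± SD, n = 2. RNASE7 is lowest after UVC and highest with active photolyase, SLPI and PI3 are highest with active photolyase, and LCN2 and DEFB1 have their highest means after UVC.

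RNASE7 (ENSG00000165799) had the widest range in fold among the 5 expressed members. It had 44.82 and 46.93 scaled cRPKM in control, 21.43 and 21.08 in UVC cells, and 170.4 and 151.4 with photolyase active. The 3 groups did not overlap, and the active-photolyase libraries lay above control as well as above UVC. Its fitted log2 fold change was -1.11 ± 0.06 (SE) for UVC against control, 2.92 ± 0.06 for active photolyase against UVC, and 1.81 ± 0.06 for active photolyase against control, the last 2 being 7.56-fold and 3.51-fold. The reads behind these values ran from 2068 to 16363 per library. With library totals in place of TMM factors the UVC value was -0.69. The summed keratinocyte markers, mostly KRT14, KRT6A and KRT5, were also lowest after UVC, and with active photolyase the sum was no higher than in control. Of the 9 markers KRT5 and ITGB4 were instead highest after UVC, KRT5 at 2511, 3129 and 2576 scaled cRPKM in the 3 groups. Their part in the RNASE7 values was not tested.

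LCN2 (ENSG00000148346) had the narrowest range in fold among the 5 expressed members. Its libraries had 787.5 and 756.7 scaled cRPKM in control, 902.1 and 984.4 in UVC cells, and 879.5 and 905.5 with photolyase active. Both irradiated groups lay above control, and they overlapped each other. The log2 fold change was 0.29 ± 0.06 for UVC against control, 0.21 ± 0.06 for active photolyase against control and -0.08 ± 0.06 between the irradiated groups. With library totals these values were 0.71, 0.32 and -0.39, and LCN2 was then called lower between the irradiated groups; the median over all genes had moved to 0.42, 0.12 and -0.34. The summed white blood cell markers were also highest after UVC, through CXCR2, S100A12 and CD14, whereas PTPRC, FCGR3B and CEACAM8 had their lowest means there, all below 1 scaled cRPKM. Their part in the LCN2 values was not tested.

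RNASE7 and LCN2 went in opposite directions after UVC, and the bases upstream of both are in the RefSeq promoter table (GRCh38.p14, not the hg19 build of the alignment), which matched 3 of the 7 members, RNASE7, LCN2 and CAMP. The 250 bases before each start are shown 5′ to 3′ on the plus strand, the strand of both genes. RNASE7 covers chr14:21042112-21042361 and LCN2 covers chr9:128149203-128149452. Capitals mark matches, on either strand, to a loosened AP-1 pattern TGANTCA, the C/EBP motif TTNNGNAA or the NF-kB consensus. In these patterns N stands for any base. They belong to factors through which keratinocytes answer to stress and cytokines.
RNASE7: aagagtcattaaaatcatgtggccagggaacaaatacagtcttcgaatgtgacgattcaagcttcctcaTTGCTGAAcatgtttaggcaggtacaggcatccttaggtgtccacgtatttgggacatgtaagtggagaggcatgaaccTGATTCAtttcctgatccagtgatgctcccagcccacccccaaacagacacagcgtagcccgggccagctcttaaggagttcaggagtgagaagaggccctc
LCN2: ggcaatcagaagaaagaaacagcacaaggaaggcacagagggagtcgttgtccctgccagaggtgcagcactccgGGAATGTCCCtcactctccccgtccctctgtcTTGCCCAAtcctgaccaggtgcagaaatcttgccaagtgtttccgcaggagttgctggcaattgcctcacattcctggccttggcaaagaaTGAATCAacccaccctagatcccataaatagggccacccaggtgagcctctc
RNASE7 held an AP-1 match 102 to 96 bases before the start and a C/EBP match at 181 to 174. LCN2 held an AP-1 match at 52 to 46, a C/EBP match at 143 to 136 and an NF-kB match at 175 to 166, and none of the matches overlapped another motif. The open middle base of the AP-1 match was T in RNASE7 and A in LCN2. Of 35116 promoters cut to the same 250 bases, 6.57% held the loosened AP-1 pattern, 33.2% the C/EBP motif and 5.21% the NF-kB consensus. A match describes letters and shows no binding.

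The WAP inhibitors SLPI and PI3 lie close together on chromosome 20, with 2 coding genes between them, SEMG1 and SEMG2, which had at most 8 reads in any library. SLPI (ENSG00000124107) had 1007 and 909.8 scaled cRPKM in control, 1304 and 1279 in UVC cells, and 2018 and 1751 with photolyase active. The groups did not overlap, and each step was upward, by 0.43 ± 0.07 on the log2 scale from control to UVC and by 0.54 ± 0.07 from UVC to active photolyase. Over both steps SLPI was 1.97-fold higher than in control. PI3 (ENSG00000124102) had 455.4 and 445.3 in control, 559 and 535.5 in UVC cells, and 897.3 and 819.6 with photolyase active. Its groups were also apart, with log2 fold changes of 0.28 ± 0.06, 0.65 ± 0.06 and, against control, 0.93 ± 0.06. The ratio of SLPI to PI3 stayed within 2.04 to 2.39 over the 6 libraries, so the pair kept nearly the same proportion in every group. Which of the steps was larger depended on the scaling. With library totals the first was 0.85 for SLPI and 0.70 for PI3 and the second 0.24 and 0.34, against medians over all genes of 0.42 and -0.34.

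DEFB1 (ENSG00000164825) was highest after UVC. It had 12.29 and 11.82 scaled cRPKM in control, 21.96 and 25.49 in UVC cells, and 18.19 and 18.10 with photolyase active. The groups did not overlap, and active photolyase lay between the other two. The log2 fold change was 0.98 ± 0.10 for UVC against control, -0.39 ± 0.09 for active photolyase against UVC and 0.59 ± 0.10 for active photolyase against control. With library totals these values were 1.40, -0.69 and 0.70. DEFB1 rested on fewer reads than the members above it, 312 to 746 per library.

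DEFB4A and CAMP were not measurably expressed. DEFB4A (ENSG00000171711), whose sequence is shared almost wholly with its copy DEFB4B, had 0 and 1 reads in control, 2 and 5 in UVC cells, and 4 and 2 with photolyase active. The effective length behind its deposited cRPKM was only 48 bases, against 429 to 1440 for the other members, so 1 cRPKM corresponded to 2.77 to 3.36 reads. It passed the filter on low values through 1 library of each irradiated group, at 1.81 and 1.19 cRPKM, and had to be higher there. Summed over libraries, its reads gave a ratio of 6.3 for UVC against control, with an exact conditional 95% interval of 0.81 to 284. That interval covers counting error only, and a difference was not detectable at this depth. The control library with 0 reads allows up to 3 reads, or 0.893 cRPKM. CAMP (ENSG00000164047) had 3 and 5 reads in control, 3 and 5 in UVC cells, and 8 and 9 with photolyase active, at most 0.19 cRPKM, and was not tested. Its ratio for active photolyase against UVC was 2.23, with an interval of 0.91 to 5.96.

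**Figure D2:**
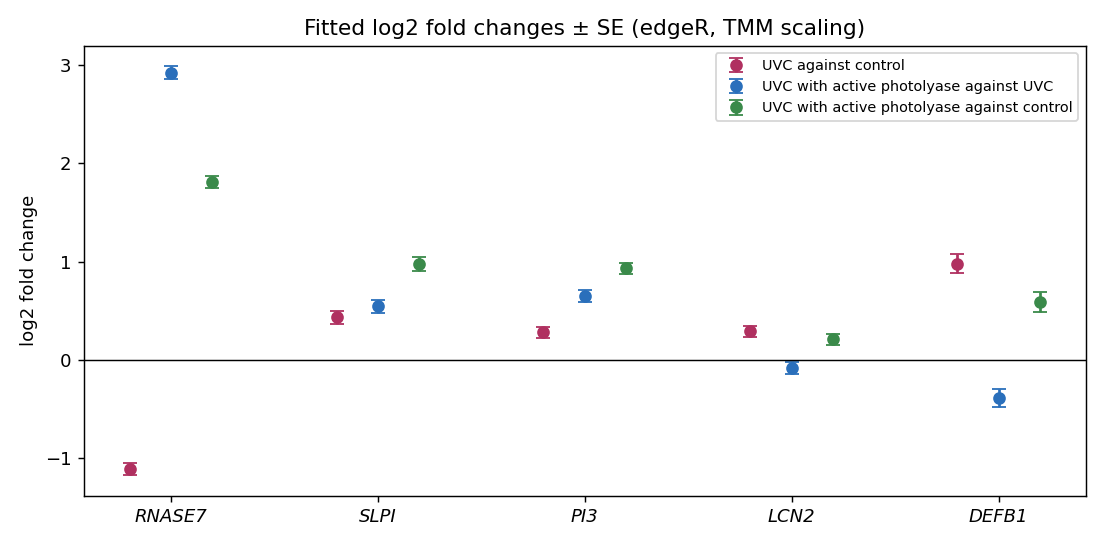
Fitted log2 fold change ± SE (y axis) of 5 members (x axis) in the 3 comparisons, by colour. RNASE7 spans -1.11 to 2.92, SLPI and PI3 are above 0 in all 3 comparisons, and LCN2 and DEFB1 are below 0 only for active photolyase against UVC.

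Of 6 members tested, 4 were called higher and 1 lower after UVC, where edgeR called 42.5% of all tested genes higher and 43.1% lower. For active photolyase against UVC 3 were higher (RNASE7, SLPI and PI3) and 1 lower (DEFB1), beside 39.2% and 39.9% of all genes. Against control, active photolyase had 5 higher and 0 lower, beside 33% and 32.9%. The median log2 change of the 6 was 0.36, 0.23 and 0.95 in these comparisons, and that of the 5 without DEFB4A 0.29, 0.54 and 0.93, while the median of all genes was 0.004, -0.038 and 0.012. Nothing is read from these counts, since the listing was made with the same comparisons in view. The comparisons share libraries in pairs and are not independent.

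With library totals the median of all genes moved to 0.42, -0.34 and 0.12, and the genes called split into 7095 higher and 3542 lower after UVC, against 5074 and 5140 with TMM factors. For active photolyase against UVC the split was 3318 and 6954, against 4676 and 4755, and against control 5237 and 2840, against 3933 and 3919. Relative to that moved median, RNASE7 stood at -1.11, 2.96 and 1.80 in the 3 comparisons and DEFB1 at 0.97, -0.35 and 0.58. No member with over 10 reads per library changed sign between the 2 scalings.

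The other antimicrobial genes of skin form a list without the members. Of 17 listed, 14 had values and 7 were tested, of which 4 rose after UVC and 1 fell. Over all tested genes the shares called higher and lower were 42.5% and 43.1% after UVC. For active photolyase they were 39.2% and 39.9% against UVC, and 33% and 32.9% against control. The counts of all lists below stand beside these shares, and nothing is read from them. The risers were S100A8 and S100A9, which form the zinc-binding dimer calprotectin, and the peptidoglycan-binding PGLYRP3 and PGLYRP4. S100A8 had 138.2 and 115.8 scaled cRPKM in control, 230.3 and 269.3 in UVC cells, and 199.8 and 195.6 with photolyase active. Its rise after UVC was 0.98 ± 0.08 on the log2 scale (adjusted p = 7.02e-08, edgeR quasi-likelihood test), and it fell again with active photolyase (-0.34 ± 0.08, adjusted p = 0.00162) to a level still above control (0.64 ± 0.08, adjusted p = 1.63e-05). S100A9 had 456.6 and 401.3 in control, 672.2 and 753.3 in UVC cells, and 606.2 and 572.3 with photolyase active. PGLYRP4, the smallest p among the rises, went from 12.19 ± 0.313 to 21.32 ± 0.745 (0.81 ± 0.06, adjusted p = 3.75e-08, edgeR) and back to 14.43 ± 0.925.

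ADM, which encodes the antimicrobial peptide hormone adrenomedullin, was the gene that fell after UVC, from 140.1 ± 1.81 to 87.77 ± 1.71 (-0.67 ± 0.05, adjusted p = 2.98e-08, edgeR), and was at 153.9 ± 6.85 with active photolyase. The psoriasin gene S100A7 was not called in any comparison, at 62.87 ± 5.48, 64.44 ± 1.75 and 67.61 ± 3.79. For active photolyase against UVC 1 of the 7 rose and 4 fell, and against control 4 rose and 0 fell. The list's medians were 0.50, -0.28 and 0.24. With library totals the counts were 6 and 1, 1 and 5, and 4 and 0. DCD, the sweat gland peptide, had no read in any library, and LYZ, LTF and S100A7A were under the filter. S100A12, also on the white blood cell list, was tested and not called.

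Among relatives of RNASE7, few were expressed. Of 9 genes of the RNase A family with its inhibitor, 8 had values and 3 were tested. ANG, the ribonuclease angiogenin, rose from 5.625 ± 1.24 to 8.494 ± 0.439 after UVC (0.60 ± 0.14, adjusted p = 0.00103, edgeR) and was at 8.67 ± 0.543 with active photolyase, which differed from UVC by 0.03 ± 0.13. Without control replicate 2 the rise after UVC was 0.389 (adjusted p = 0.0115, edgeR), and without control replicate 1 it was 0.838. RNASE1 was called only against control (0.49 ± 0.20, adjusted p = 0.0463, edgeR), with libraries that overlapped, and DESeq2 called 1 rise in the list there, not 2. RNH1, the cytosolic inhibitor that binds such ribonucleases, was at 69.55 ± 1.78, 67.26 ± 3.13 and 68.8 ± 0.704 in the 3 groups and was not called. The list thus had 1 rise, 0 and 2 rises in the 3 comparisons and no fall, and with library totals 3 rises, 1 fall and 2 rises, where RNH1 and, between the irradiated groups, RNASE1 and ANG changed sign.

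Other WAP genes were mostly low. Of 9 listed 5 were tested, and only WFDC2 was abundant, at 210.2 ± 25.3 in control, 287.5 ± 11.1 in UVC cells, and 248.1 ± 5.92 with photolyase active. WFDC2 rose after UVC (0.45 ± 0.07, adjusted p = 3.07e-05, edgeR) and fell with active photolyase (-0.21 ± 0.07, adjusted p = 0.0115, edgeR), opposite to the second step of SLPI and PI3. That fall lost its call without UVC replicate 1 (adjusted p = 0.108, edgeR). EPPIN, which passed the filter only through the irradiated groups, had 0.8134 ± 0.0334 in control and 2.669 ± 0.511 after UVC, and WFDC12 fell (1.751 to 0.7911), while WFDC3 rose from 1.929 to 4.694 with active photolyase. Counts were 2 rises and 1 fall, 3 and 2, and 3 and 0, with medians of -0.13, 0.56 and 0.43. With library totals the counts were 2 and 1, 2 and 2, and 5 and 0. The UVC median was then 0.29, above 0, and WFDC3 and WFDC5 changed sign in that comparison. DESeq2 called 1 fall, not 2, for active photolyase against UVC.

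Of 18 proteases, inhibitors and binding partners of the members 12 were tested, and after UVC 4 rose and 6 fell, beside the 42.5% and 43.1% of all genes. The neutrophil proteases blocked by SLPI, PI3 or both, ELANE, PRTN3 and CTSG, were under the filter. SPINK6, a kallikrein inhibitor, fell from 31.87 ± 0.121 to 3.972 ± 0.11 (adjusted p = 6.23e-13, edgeR) and was at 37.23 ± 0.575 with active photolyase. TGM2, a transglutaminase, fell after UVC and reached 21.73 and 20.73 scaled cRPKM with active photolyase, from 7.638 and 7.929 in control and 2.328 and 2.511 after UVC (3.13 ± 0.06 against UVC, adjusted p = 1.01e-13, edgeR). MMP9, whose protein binds lipocalin 2, was chosen after its values were seen: it stood at 7.84 ± 0.094, 7.127 ± 0.216 and 23.31 ± 1.45. SLC22A17, a lipocalin 2 receptor gene, was low, at 0.7173 in control and 1.802 after UVC, and passed the filter only through the irradiated groups. ANXA2, whose protein binds SLPI, fell from 3234 to 1264 after UVC and was at 1890 with active photolyase, still below control (-0.77 ± 0.06). GRN, whose product SLPI protects from elastase, rose from 240.3 to 323.8 after UVC and fell to 264.7 with active photolyase. With active photolyase against UVC the counts were 8 rises and 2 falls, and against control 6 and 3, with medians of -0.26, 0.85 and 0.18 in the 3 comparisons. With library totals they were 6 and 5, 7 and 5, and 9 and 2, and the UVC median was 0.15, above 0. DESeq2 called 5 falls, not 6, after UVC and 1 fall, not 2, between the irradiated groups.

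Of 21 sensors and receptors 18 were tested, with 8 rises and 8 falls after UVC. TLR5, the flagellin receptor, had 0.4067 scaled cRPKM in control and 1.497 after UVC, and passed the filter only through the UVC libraries, so it had to be higher there. NOD2, at 0.8699, 0.7106 and 2.051 in the 3 groups, passed it only through the active-photolyase libraries and had to be higher in those. F2RL1, the protease-activated receptor 2, fell from 254.7 ± 4.93 to 56.63 ± 0.341 (-2.17 ± 0.05, adjusted p = 1.86e-13, edgeR) and was at 334 ± 1.94 with active photolyase. MYD88, the adaptor of most Toll-like receptors, was at 70.83, 80.45 and 114.3 in the 3 groups, above control with active photolyase (0.69 ± 0.05). EGFR, at 113.4, 65.79 and 58.79, was below control with active photolyase (-0.95 ± 0.06) and already after UVC (-0.78 ± 0.06). RXRA, the partner of the vitamin D receptor, was at 33.23, 45.75 and 27.81, lower with active photolyase than after UVC (-0.72 ± 0.05). Counts for the other comparisons were 9 and 8, and 11 and 7, with medians of -0.11, 0.19 and 0.34. With library totals counts were 10 and 7, 6 and 9, and 11 and 5, and the first 2 medians were 0.31 and -0.12, of the opposite sign. DESeq2 called 6 falls, not 7, against control.

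The cytokines and growth factors that act on such genes moved in both directions, with 6 rises and 8 falls of 15 after UVC. The falls included IL1RN and IL36RN (-1.971 and -2.222), which encode receptor antagonists and not inducers. IL17C passed the filter only through the UVC libraries and TNF only through the irradiated groups, so both had to be higher there. IL36A and IL36B passed it only through control and active photolyase, so they had to be lower after UVC. AREG had at most 7 reads in any library, which gave 50 cRPKM in control replicate 1, and was not called in any comparison. IL6 had 56.24 and 62.85 scaled cRPKM in control, 353.1 and 356.7 in UVC cells, and 180.9 and 179.6 with photolyase active. TGFA, an EGF receptor ligand, had 136.4 and 140.5, then 4.868 and 5.106, then 61.86 and 61.7. These opposite courses left IL6 above and TGFA below control with active photolyase (1.60 ± 0.06 and -1.16 ± 0.05). TNF went from 0.8474 in control to 20.01 after UVC and 2.92 with active photolyase. It had the smallest p among the falls from UVC to active photolyase (-2.78 ± 0.10, adjusted p = 1.2e-11, edgeR), and stayed above control (1.79 ± 0.14). Active photolyase against UVC gave 8 rises and 6 falls and against control 9 and 3, with medians of -0.63, 0.45 and 0.30; with library totals the counts were 7 and 7, 8 and 6, and 9 and 2.

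Of 31 transcription factors and enzymes that act on the member genes 30 were tested, with 13 rises and 15 falls after UVC. CEBPE, at 0.3727, 0.7825 and 1.743 in the 3 groups, passed the filter only through the active-photolyase libraries and had to be higher in those. FOS, a subunit of AP-1, rose from 13.88 to 83.69 (2.59 ± 0.06) and was at 33.02 with active photolyase. NFKB1, which encodes an NF-kB subunit, had 56.4 and 58.94 in control, 7.052 and 7.237 in UVC cells, and 23.27 and 23.48 with photolyase active. KLF5, an epithelial factor, was at 322 ± 0.601, 77.49 ± 1.75 and 322 ± 8.25, and so was called in both comparisons with UVC and not against control (0.001 ± 0.052). FOS and NFKB1 moved in opposite directions after UVC, but genes of the factors whose motifs were searched above did not all move alike. With FOS, JUN and JUNB rose (1.23 and 0.89), whereas FOSL1, also of AP-1, fell from 1212 to 378.7 (-1.68). Of the NF-kB subunits, RELA, RELB and REL fell with NFKB1, and NFKB2 was not called (0.11 ± 0.05). Other genes of the NF-kB pathway in the list went both ways. NFKBIA, NFKBIZ and IKBKB rose (1.375, 1.3 and 0.35), and BCL3, TRAF6 and TRAF3IP2 fell (-0.481, -2.101 and -1.109). CEBPA, CEBPD and CEBPE rose, while CEBPB fell (-0.20) but was called higher with library totals. The other counts were 15 and 11, and 12 and 11, with medians of -0.10, 0.11 and -0.02. With library totals the counts were 17 and 12, 12 and 16, and 14 and 11, and all 3 medians had the other sign, at 0.32, -0.20 and 0.09. DESeq2 called 14 rises and 10 falls between the irradiated groups.

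**Figure D3:**
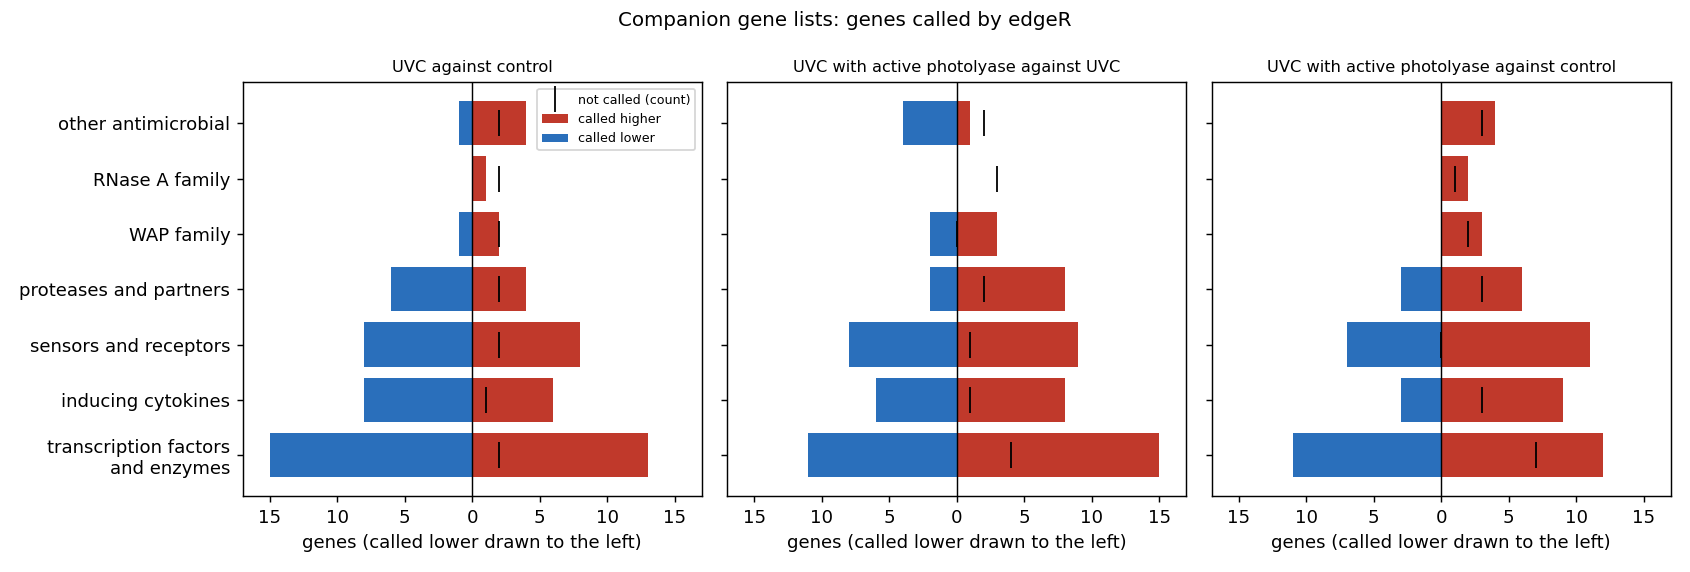
Number of genes called higher (red, to the right) or lower (blue, to the left) by edgeR in 7 lists (y axis) for each comparison; a black tick gives the number not called. The antimicrobial list has 4 rises and 1 fall after UVC and 1 rise and 4 falls from UVC to active photolyase. Of all tested genes, 42.5% were called higher and 43.1% lower after UVC, and 39.2% and 39.9% from UVC to active photolyase.

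The genes nearest to each member in pattern were taken from 8641 genes by Euclidean distance over the 6 libraries, on log2(scaled cRPKM + 1) centred per gene; distances are on that scale and carry no test. Nearest to RNASE7 were TGM2 (0.464) and 2 genes of the late cornified envelope, LCE3E (0.525) and LCE3D (0.56). LCE3E went from 84.79 in control to 29.89 in UVC cells, and 212.9 with photolyase active, and LCE3D from 4.073 to 1.353 and 22.6. No gene came as close to RNASE7 as those nearest to the other members. The distance was not scaled by the size of a gene's changes, and RNASE7 had the widest range in fold among the expressed members. The added 1 also shrinks the changes of low genes, such as LCE3D. How far either set these distances was not tested.

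SLPI and PI3 shared their nearest gene, FABP5, a fatty acid binding protein of epidermis, at distances of 0.131 and 0.066. FABP5 had 56.61, 71.59 and 108.9 scaled cRPKM in the 3 groups. The next were DUSP1 (0.173), a MAP kinase phosphatase, and PNMA1 (0.193) for SLPI, and IDI1 (0.103), of cholesterol synthesis, and CCDC190 (0.122) for PI3. LCN2 had TMEM50A (0.063), NOP53 (0.07) and CYP24A1 (0.07), the enzyme that degrades active vitamin D, nearby. DEFB1 had RIPK3 (0.102), a kinase of necroptosis, NUDT2 (0.104) and BNIP3P1 (0.118), all below 11 scaled cRPKM, as nearest.

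**Figure D4:**
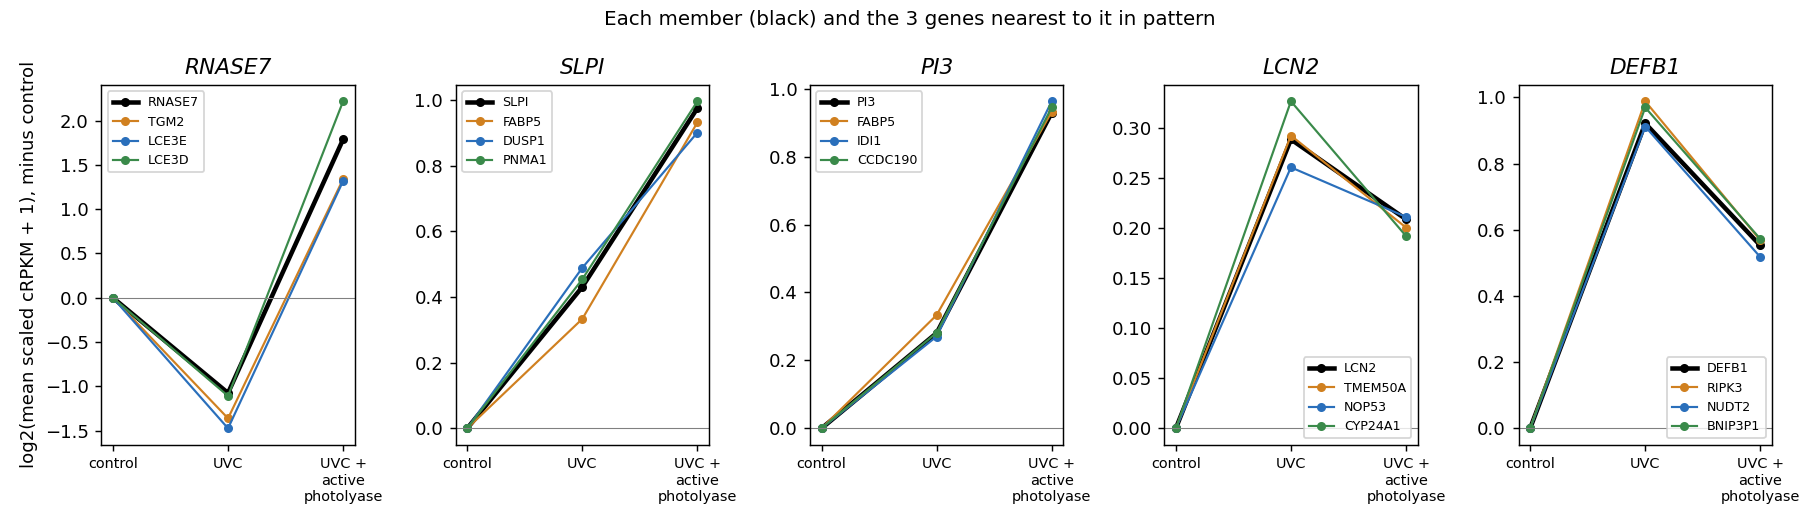
Log2(mean scaled cRPKM + 1) minus its control value (y axis, a separate scale per panel) in the 3 groups (x axis) for each member, in black, and the 3 genes nearest to it over the libraries. RNASE7, TGM2, LCE3E and LCE3D dip after UVC and end above control, while FABP5 climbs at both steps with SLPI and PI3.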

How the data were processed

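RNA from HaCaT cells was sequenced after TruSeq library preparation, per the labels' protocols. Reads were aligned with Bowtie to hg19, per the submitters' processing notes; their versions, the annotation, the counting rule and any use of strand were not given in the sources used here. The authors deposited, per gene and library, a raw read count and a corrected RPKM (cRPKM), for 19847 genes, of which 354 had no value in any library. Reads of near-identical or overlapping genes can be divided between them. Symbols came from a table of Ensembl identifiers, which named 18913 of the 19493 genes; 4 companion genes (DEFB4B, DEFB103A, DEFB103B and RNASE4) were not analysed here.

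The test on counts came from edgeR 4.0.16 under R 4.3.3 (quasi-likelihood F test, two-sided, 3 group means over all 6 libraries, TMM scaling, factors 0.884 to 1.18), for the 11926 genes at 1 cRPKM or more in at least 2 libraries. A gene was called at a Benjamini-Hochberg adjusted p under 0.05, and SE was taken from the fold change and F. TMM takes most genes as unchanged, so changes say nothing of total RNA per cell. Replicates differed by more than sampling noise (chi-square per degree of freedom 20.6, 4.77 and 12.4). Members and lists were chosen with earlier results of these data known. Named were all members, per list and comparison the riser and faller of smallest p, and the 3 genes nearest to each member at 5 cRPKM or more; further companion genes were named where a count was small or after their values were seen. Alternatives used DESeq2 1.42.0 and limma 3.58.1.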

Additional observations from a re-analysis of the deposited data

How the results depend on the processing

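The number of members called was 5, 4 and 5 in the 3 comparisons. It moved by at most 1 under library totals, DESeq2, no filter or a filter of 5 cRPKM, limma on log2(cRPKM + 1) or log2(cRPKM + 0.1), only the 2 groups compared, and each library left out. The added member was DEFB4A with limma, in both comparisons with control, and LCN2 for active photolyase against UVC with library totals (-0.39), limma (-0.385 with either pseudocount) or the 5 cRPKM filter (-0.18). DEFB4A, with at most 5 reads, ranged from -0.681 to 0.625 for active photolyase against UVC with 1 library left out, and changed sign without UVC replicate 2 (0.625) and without active-photolyase replicate 2 (0.188). The cause was not tested. The counts of all genes called stayed within 1.5 times. With the replicate number as a block, 5086 genes were higher and 5152 lower after UVC (10238 in all, against 10214), and the block changed no member's call. Same-numbered differences correlated at -0.0248 between control and UVC and at 0.213 between UVC and active photolyase. Between control and active photolyase they correlated at 0.0688. Whether the numbers mark pairs was not tested. Depth limits DEFB4A and CAMP, and 2 libraries per group limit every SE.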
